A study of Homo sapiens with 6 samples.

Results

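The genes described here are 10 members of the BCL2 family in K562 cells: the pro-survival genes BCL2L1 and MCL1, the pore-forming genes BAX and BAK1, and the BH3-only genes BID, BAD, BIK, BCL2L11, BBC3 and PMAIP1. They were chosen by family membership, and their rows were found by matching the Entrez identifiers of the deposited table to RefSeq symbols. All 10 of 10 members are among the 12486 genes listed there, and 10 of 10 passed the filter on low values that left 12276 genes for testing. K562 is an established human line from a chronic myeloid leukemia and carries the Bcr-Abl fusion kinase. The cells stably expressed either sh-luc, the control shRNA, or sh-up91, the shRNA against a long noncoding RNA labelled lncRNA-up91 and called lncRNA-IUR1 in the study. Each group has 3 libraries, an unnumbered one and those numbered r1 and r2, from what the methods describe as independent groups of cells. All were made from total RNA isolated with TRIzol, no drug treatment is named for these samples, and both arms carry an shRNA. The comparison asks which genes differ in RNA level between control cells and cells given the shRNA against the lncRNA. The targeted RNA itself was not analysed here, and the efficiency of its knockdown is therefore not given.

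Proteins of the BCL2 family decide whether the outer mitochondrial membrane stays intact. BAX and BAK1 assemble into pores that release cytochrome c, BCL-XL (the main product of BCL2L1) and MCL1 hold them in check, and BH3-only proteins occupy the groove of the pro-survival proteins or activate the pore formers directly. In Bcr-Abl-positive cells, STAT5 signaling is known to maintain BCL2L1 transcription, and inhibition of the kinase is known to raise the BH3-only protein BIM, the product of BCL2L11. The measurements here are RNA levels, and much of the control of MCL1, BID and BAD acts on the protein.

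No member passed the test of a difference between sh-up91 and sh-luc (0 of 10 at an adjusted p under 0.05 in limma, and 0% of all genes tested). The highest and the lowest library of a member differed by 1.07-fold for BID to 2.33-fold for BIK. Within the sh-luc group alone the range on the log2 scale exceeded the difference between groups in 8 of 10 members. A range of 3 single libraries tends to exceed a difference between means of 3, and the share over all genes was not computed. BBC3 and PMAIP1, the genes of the BH3-only proteins PUMA and NOXA, varied most among members above 1 FPKM, and both were lowest in the unnumbered sh-luc library. MCL1 and BCL2L11 were the only members whose groups did not overlap, both lower in sh-up91, with ratios of the means of 0.904 and 0.901, and 3.03% of all genes tested were lower without overlap.

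The deposited values are FPKM (fragments corrected for the length of the transcript and for the number mapped). Levels were therefore set beside each other between genes as well as between libraries. The values carry no correction for RNA composition, and they rest on an annotation that is not given in the sources used here. They sum to between 579820 and 606240 over the listed genes, which is not a sequencing depth, and the number of fragments behind them was not recovered here. Across genes, log2(FPKM + 1) gave a Pearson's r of 0.9907 to 0.9963 between the unnumbered sh-luc library and the others, and of 0.9957 to 0.9984 between all other pairs. That library held the lowest of the 6 values for 38.4% of the genes tested and the highest for 24.1%. Of 12 K562 erythroid markers, 12 were listed, led by HBG2 at 2559 to 3565 FPKM, and their sum was 6746 in the unnumbered sh-luc library and 5081 to 5755 in the others. All 12 had a log2 fold change below 0 in sh-up91, where 42% of all genes tested did. Their median was -0.081, and -0.037 without the unnumbered sh-luc library. Only HBE1 had groups that did not overlap, at 188.98, 173.99 and 173.34 FPKM in sh-luc and 162.67, 169.42 and 164.53 FPKM in sh-up91 (3.03% of all genes tested were lower in this way). Lymphoid markers, 6 of 8 listed, summed to between 4.74 and 6.67 FPKM. Of 8 monocyte and granulocyte markers only LYZ was listed, at 107.0 to 118.7 FPKM. The 4 of 9 fibroblast and epithelial markers listed were COL1A1 (0.21 to 0.37 FPKM), EPCAM, KRT8 and KRT18, with a sum of 677.5 to 719.8 FPKM. The part of these marker levels in the values of the members was not tested, and in bulk RNA fewer cells of a type and less RNA per cell cannot be told apart.

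To place the members beside the sequence around their start sites, windows of 250 bases before and 50 bases from annotated starts were taken from RefSeq (GRCh38.p14), which matched 8 of 10 members with 14 windows in all. MCL1 and BIK were not matched. The windows of BCL2L11, BBC3 and PMAIP1 are printed because these are the BH3-only members described at greatest length below. They are chr2:111120664-111120963 on the plus strand, chr19:47232618-47232917 on the minus strand and chr18:59899746-59900045 on the plus strand, each read 5′ to 3′ on the strand of the gene, with the letters of a searched motif in capitals.
BCL2L11: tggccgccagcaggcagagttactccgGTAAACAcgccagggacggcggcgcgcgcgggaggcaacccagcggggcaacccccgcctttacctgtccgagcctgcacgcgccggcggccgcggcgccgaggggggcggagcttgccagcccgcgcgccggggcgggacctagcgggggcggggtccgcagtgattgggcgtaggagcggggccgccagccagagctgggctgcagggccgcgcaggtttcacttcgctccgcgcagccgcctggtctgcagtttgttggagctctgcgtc
BBC3: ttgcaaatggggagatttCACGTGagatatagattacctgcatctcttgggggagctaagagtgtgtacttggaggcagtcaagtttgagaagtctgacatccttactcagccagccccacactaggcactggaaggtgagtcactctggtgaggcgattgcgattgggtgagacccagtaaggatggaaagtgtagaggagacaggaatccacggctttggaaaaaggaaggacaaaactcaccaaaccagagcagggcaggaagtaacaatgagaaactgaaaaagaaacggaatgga
PMAIP1: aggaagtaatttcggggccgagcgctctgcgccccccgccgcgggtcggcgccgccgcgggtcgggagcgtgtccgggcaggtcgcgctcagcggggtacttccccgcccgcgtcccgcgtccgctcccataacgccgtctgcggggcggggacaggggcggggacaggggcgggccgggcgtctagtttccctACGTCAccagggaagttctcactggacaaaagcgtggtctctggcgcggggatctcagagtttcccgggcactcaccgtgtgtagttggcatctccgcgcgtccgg
The capitals in the BCL2L11 window, from base 28, are GTAAACA, letters bound by FOXO factors and found on either strand in 3.42% of 35116 windows. In the BBC3 window the E-box CACGTG starts at base 19, and 7.26% of all windows hold it. That window belongs to a start within the gene, whose 5′ end at 47232860 lies among the first 250 bases of the window. In the PMAIP1 window the capitals from base 195 are ACGTCA, the reverse complement of TGACGT, the core of the cAMP response element, which 7.98% of windows hold. The same search covered the composite C/EBP-ATF site TGATGNAA (3.62% of windows), the STAT site TTCNNNGAA (7.66%) and the erythroid site AGATAA (10.3%), on both strands, and these had no match in the windows of the members. TGACGT was also present in both windows of BAD, CACGTG in the window of BAX at 4 positions and in windows of BID, and none of the 6 motifs in those of BCL2L1 and BAK1. A match is a description of letters, and the 6 motifs were chosen with earlier results of these data known.

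The levels of the members followed an order that differed little between libraries. Over all 6 libraries BCL2L1 had the highest mean at 82.0 FPKM, followed by BAX at 66.0, MCL1 at 46.5, BID at 41.0, BAK1 at 35.3, PMAIP1 at 26.3, BAD at 23.2, BCL2L11 at 19.1 and BBC3 at 12.9 FPKM. BIK came last at 0.217 FPKM. The ranges over libraries overlapped between MCL1 and BID, between PMAIP1 and BAD and between BAD and BCL2L11, and these neighbours are not separated beyond their spread. The other neighbours did not overlap in range. MCL1 was nevertheless above BID in 6 of 6 libraries, whereas PMAIP1 was above BAD in 5 of 6.

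**Figure D1:**
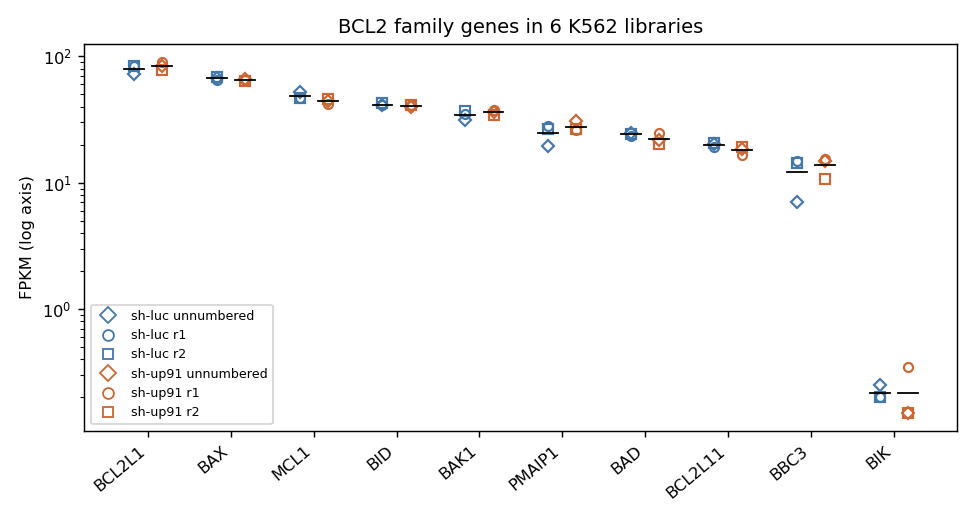
FPKM of the 10 members on a log axis in the 3 sh-luc (blue) and 3 sh-up91 (orange) libraries, with marker shape giving the replicate and a line the group mean. BCL2L1 lies at the top (72.38 to 91.04 FPKM) and BIK at the bottom (0.15 to 0.35 FPKM), and the unnumbered sh-luc library stands below the others for BBC3 (7.08 FPKM) and PMAIP1 (19.41 FPKM).

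Among the pro-survival genes, BCL2L1 (Entrez 598, chromosome 20 from 31664452 to 31723963, minus strand) was expressed at 72.38, 83.27 and 83.57 FPKM in the unnumbered, r1 and r2 sh-luc libraries and at 83.66, 91.04 and 78.00 FPKM in the corresponding sh-up91 libraries. The group means were 79.7 ± 6.38 and 84.2 ± 6.54 FPKM (SD, n = 3 each), and the groups overlapped, with the unnumbered sh-luc library lowest and sh-up91 r1 highest. On the log2(FPKM + 1) scale, used for all fold changes below, the difference was 0.078 (standard error 0.078, 95% interval -0.097 to 0.25), with an adjusted p of 0.930 in limma. It was 0.011 without the unnumbered sh-luc library.

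MCL1 (Entrez 4170, chromosome 1 from 150574558 to 150579610, minus strand) encodes a short-lived pro-survival protein that binds BAK1, BIM and NOXA. It was expressed at 52.49, 46.94 and 47.04 FPKM in the sh-luc libraries and at 44.29, 41.88 and 46.18 FPKM in the sh-up91 libraries, means of 48.8 ± 3.18 and 44.1 ± 2.16 FPKM (SD, n = 3 each). Every sh-up91 library was below every sh-luc library, and the unnumbered sh-luc library was the highest of the 6. The ratio of the means was 0.904 and the log2 fold change -0.14 (standard error 0.068, 95% interval -0.30 to 0.011), with an adjusted p of 0.930 (0.0647 unadjusted) in limma. The two-sided exact permutation test gave p = 0.1, the lower limit for groups of 3. The log2 fold change was -0.090 without the unnumbered sh-luc library. The GENCODE release 44 model of ADAMTSL4 overlaps MCL1 on the opposite strand. ADAMTSL4 was listed at 53.90, 63.38 and 53.25 FPKM in sh-luc and at 64.33, 68.82 and 58.19 FPKM in sh-up91, and since the strand setting of the counting is not given in the sources used here, reads of the overlap cannot be told apart.

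Of the 2 pore-forming genes, BAX varied less over the 6 libraries (1.081-fold from lowest to highest) than BAK1 (1.205-fold). BAX (Entrez 581, chromosome 19 from 48954875 to 48961798, plus strand) stood at 67.47, 64.81 and 69.11 FPKM in sh-luc and 65.75, 64.84 and 63.96 FPKM in sh-up91. Its log2 fold change was -0.049 (standard error 0.055, 95% interval -0.17 to 0.075), with an adjusted p of 0.931 in limma, and the groups overlapped. BAK1 (Entrez 578, chromosome 6 from 33572552 to 33580276, minus strand) stood at 31.40, 34.98 and 37.21 FPKM in sh-luc and 36.15, 37.85 and 34.27 FPKM in sh-up91. The groups overlapped here too, with the unnumbered sh-luc library lowest. The log2 fold change of BAK1 was 0.064 (standard error 0.076, 95% interval -0.11 to 0.23, adjusted p = 0.931 in limma), and without the unnumbered sh-luc library it was -0.00067, so that the sign of the difference rests on that library.

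BID (Entrez 637, chromosome 22 from 17734138 to 17774665, minus strand) links death receptors to mitochondria once caspase-8 has cut it. Its RNA was the least variable of the 10 members, at 40.99, 41.03 and 42.56 FPKM in sh-luc and 39.72, 40.89 and 41.04 FPKM in sh-up91. The log2 fold change was -0.033 (standard error 0.057, 95% interval -0.16 to 0.093, adjusted p = 0.947 in limma), and the groups overlapped.

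BAD (Entrez 572, chromosome 11 from 64269828 to 64284704, minus strand) binds BCL-XL and is held inactive when AKT or PIM kinases phosphorylate it. The sh-luc libraries held 24.64, 23.49 and 24.33 FPKM and the sh-up91 libraries 21.66, 24.97 and 20.23 FPKM. The unnumbered and r2 sh-up91 libraries lay below all sh-luc libraries, whereas sh-up91 r1 was the highest of the 6, so the groups overlapped. The log2 fold change was -0.12 (standard error 0.082, 95% interval -0.30 to 0.066), with an adjusted p of 0.930 in limma. Without sh-up91 r1 it was -0.20, with an adjusted p of 0.999 (0.0279 unadjusted) in limma, and without sh-up91 r2 it was -0.052. GPR137, whose GENCODE model overlaps BAD on the opposite strand, was listed at 10.88 to 13.31 FPKM. Models of genes that are not protein-coding overlap BCL2L1, BAK1, BCL2L11 and BBC3 on the opposite strand. Reads of those overlaps cannot be told apart either.

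BIK (Entrez 638, chromosome 22 from 43110750 to 43129712, plus strand), which encodes a BH3-only protein of the endoplasmic reticulum, was close to the lowest levels tested. It was listed at 0.25, 0.20 and 0.20 FPKM in sh-luc and at 0.15, 0.35 and 0.15 FPKM in sh-up91. All these values are whole multiples of 0.05 FPKM, from 3 to 7 of them. The group means were both 0.217 FPKM, with an SD of 0.0289 in sh-luc and 0.116 in sh-up91 (n = 3 each), and the log2 fold change was -0.0039 (standard error 0.084, 95% interval -0.19 to 0.18, adjusted p = 0.994 in limma). On the log2(FPKM + 1) scale fold changes of such a low gene are understated, and what difference in BIK could be detected at this level was not tested.

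BCL2L11 (Entrez 10018, chromosome 2 from 111120914 to 111168445, plus strand) encodes BIM, a BH3-only protein that binds every pro-survival member and can activate BAX and BAK1. Its level was 20.23, 19.20 and 20.74 FPKM in sh-luc and 18.54, 16.48 and 19.19 FPKM in sh-up91, means of 20.1 ± 0.785 and 18.1 ± 1.42 FPKM (SD, n = 3 each). Every sh-up91 library was below every sh-luc library, by the narrowest of margins at 19.20 against 19.19 FPKM. The ratio of the means was 0.901 and the log2 fold change -0.14 (standard error 0.076, 95% interval -0.31 to 0.024), with an adjusted p of 0.930 (0.0855 unadjusted) in limma. The two-sided exact permutation test again gave its smallest possible p of 0.1. Leaving out the unnumbered sh-luc library left the log2 fold change at -0.14, whereas without sh-up91 r1, its lowest library, it was -0.084.

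BBC3 (Entrez 27113, chromosome 19 from 47220824 to 47232860, minus strand) encodes PUMA, a BH3-only protein known as a target of p53, FOXO3 and CHOP. It was expressed at 7.08, 14.86 and 14.30 FPKM in sh-luc and at 14.87, 15.56 and 10.77 FPKM in sh-up91. The unnumbered sh-luc library was the lowest and sh-up91 r2 the next, and the groups overlapped. The means were 12.1 ± 4.34 and 13.7 ± 2.59 FPKM (SD, n = 3 each), with a log2 fold change of 0.22 (standard error 0.23, 95% interval -0.30 to 0.74, adjusted p = 0.930 in limma). Without the unnumbered sh-luc library it was -0.096, in the opposite direction.

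PMAIP1 (Entrez 5366, chromosome 18 from 59899996 to 59904305, plus strand) encodes NOXA, which binds MCL1 and is known to be transcribed in response to p53 and to ATF4. It was expressed at 19.41, 28.25 and 26.77 FPKM in sh-luc and at 30.68, 26.04 and 26.82 FPKM in sh-up91. The unnumbered sh-luc library was lowest and the unnumbered sh-up91 library highest, and the groups overlapped. The means were 24.8 ± 4.74 and 27.8 ± 2.49 FPKM (SD, n = 3 each), and the log2 fold change was 0.17 (standard error 0.13, 95% interval -0.11 to 0.46, adjusted p = 0.930 in limma). Without the unnumbered sh-luc library it was 0.014.

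Counted together, 0 of 10 members had an adjusted p under 0.05 in limma, against 0% of the 12276 genes tested, and 0 of 10 had an unadjusted p under 0.05. Among all genes tested 1.65% were higher and 0.994% lower in sh-up91 at that unadjusted threshold. Groups that did not overlap were seen in 2 of 10 members, MCL1 and BCL2L11, both lower, where 3.03% of all genes tested were lower and 4.04% higher in this way. With median-ratio scaling or quantile normalization of the libraries MCL1 alone did not overlap, and the shares of all genes became 3.79% or 4.0% lower and 3.53% or 2.98% higher. Without the unnumbered sh-luc library MCL1 and BCL2L11 had to stay without overlap, since leaving out a library cannot add overlap. In that setting 6.18% of genes were lower and 6.43% higher. Of the 10 log2 fold changes 6 were below and 4 above 0, with a median of -0.019, while the median over all genes tested was 0.019 and 42% of genes were below 0. Of the 9 members with a mean of at least 1 FPKM, 8 had a 95% interval within 0.5 of 0 on the log2 scale, the exception being BBC3. For BIK the interval sets no such limit, since at its level the added 1 FPKM compresses any difference. Whether the groups of cells behind the libraries were transduced separately is not given in the sources used here, and the p-values measure the spread between these libraries, which may be technical.

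**Figure D2:**
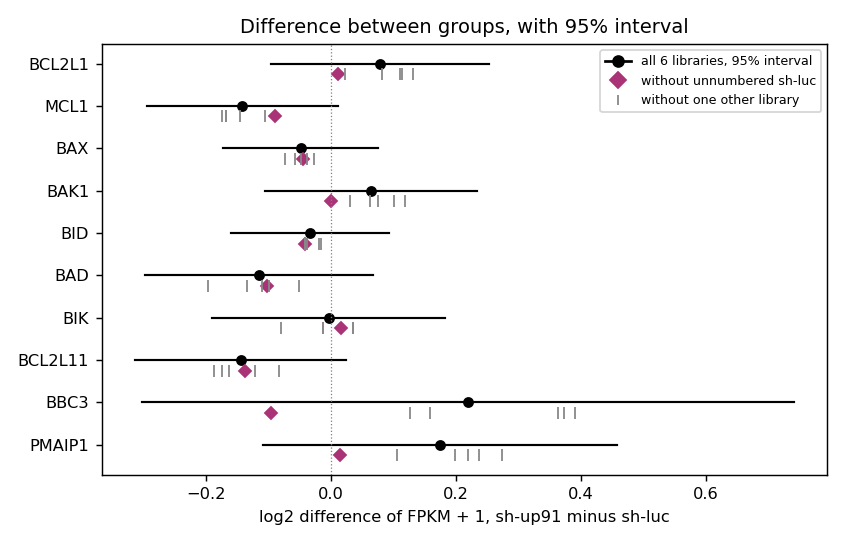
Difference between groups in log2(FPKM + 1), sh-up91 minus sh-luc, for each member, with all 6 libraries and the 95% interval from limma (black), without the unnumbered sh-luc library (purple diamonds) and without each of the other libraries (grey ticks). All 10 intervals include 0, and BBC3 goes from 0.22 to -0.096 when the unnumbered sh-luc library is left out.

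The balance between pro-survival and pro-death RNA was also compared within each library, as a description without a test. BCL2L1 and MCL1 summed to 124.9, 130.2 and 130.6 FPKM in the sh-luc libraries, against 127.9, 132.9 and 124.2 FPKM in the sh-up91 libraries. The other 8 members, all pro-death, summed to 211.5, 226.8 and 235.2 FPKM in sh-luc, against 227.5, 227.0 and 216.4 FPKM in sh-up91. The ratio of these sums in the sh-luc libraries was 0.590, 0.574 and 0.555, and in the sh-up91 libraries 0.562, 0.586 and 0.574, with means of 0.573 ± 0.0176 and 0.574 ± 0.0116 (SD, n = 3 each). The group means of this ratio lay closer together than the single libraries of one group, but means of 3 vary less than single libraries. The pro-survival sum also joins BCL2L1, with a ratio of the group means of 1.056, and MCL1, with 0.904. Against the pore-forming genes alone the pro-survival sum was 1.23 to 1.30 times as high in sh-luc and 1.26 to 1.29 times in sh-up91, and against the BH3-only genes it was 1.01 to 1.11 times and 1.02 to 1.07 times.

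Ratios of single genes ranged from as even as these sums to much less even. BCL2L1 relative to BAK1 stayed between 2.25 and 2.41 over the 6 libraries, a 1.07-fold range, where the ratio of pro-survival to pro-death sums had a 1.06-fold range. In the sh-luc libraries BCL2L1 stood at 1.38, 1.77 and 1.78 times MCL1, and in the sh-up91 libraries at 1.89, 2.17 and 1.69 times. Relative to BCL2L11 it stood at 3.58, 4.34 and 4.03 times in sh-luc, against 4.51, 5.52 and 4.07 times in sh-up91. MCL1 relative to PMAIP1, the gene of its dedicated BH3-only partner, gave 2.70, 1.66 and 1.76 for sh-luc, against 1.44, 1.61 and 1.72 for sh-up91. The unnumbered sh-luc library was the extreme of its group in each of these 3 ratios, and the groups overlapped in all of them. MCL1 relative to BCL2L11, the 2 members that were both lower in sh-up91, stayed between 2.27 and 2.60 in sh-luc and between 2.39 and 2.54 in sh-up91.

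**Figure D3:**
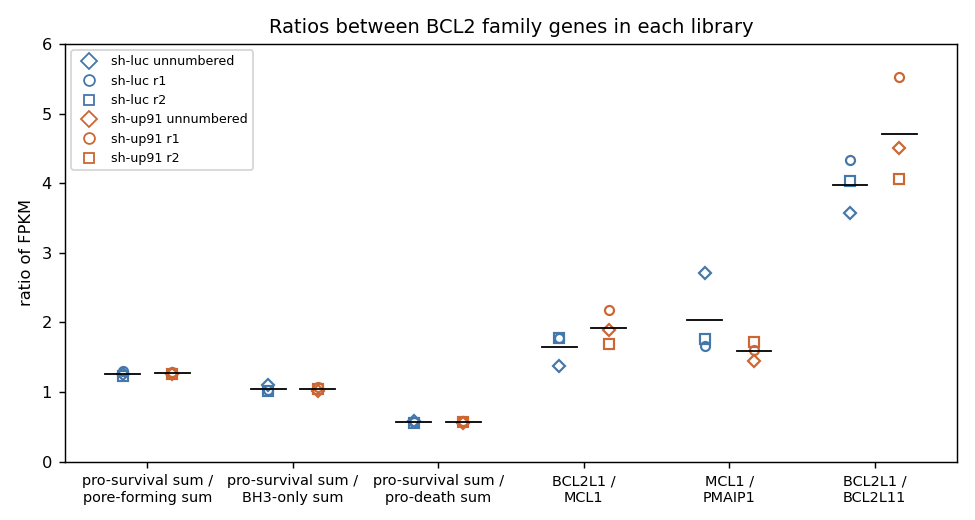
Ratios of FPKM between members within each of the 3 sh-luc (blue) and 3 sh-up91 (orange) libraries, with marker shape giving the replicate and a line the group mean. The ratios of summed pro-survival RNA lie close together, at 0.555 to 0.590 against all pro-death members, while BCL2L1 over BCL2L11 spreads from 3.58 to 5.52.

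The unnumbered sh-luc library was lowest of the 6 for 4 of 10 members, BCL2L1, BAK1, BBC3 and PMAIP1, and highest for 1 of 10, MCL1, against 38.4% and 24.1% of all genes tested. The integrated stress response, in which ATF4 and its target CHOP (the product of DDIT3) are induced, is a known route to BBC3 and PMAIP1. The summed FPKM of 12 listed stress genes was 953.9 in that library, 1942 and 1714 in the other sh-luc libraries, and 1909, 2121 and 1612 in the sh-up91 libraries. All 12 of these genes were lowest in the unnumbered sh-luc library. DDIT3 was measured at 41.85, 97.21 and 88.77 FPKM in sh-luc and 100.54, 111.06 and 85.63 FPKM in sh-up91, and ATF4 at 252.24, 294.65 and 289.40 FPKM in sh-luc and 286.09, 279.58 and 297.50 FPKM in sh-up91. The median log2 fold change of the stress genes was 0.44 with all libraries and 0.051 without the unnumbered sh-luc library. The part of these genes, or of what set that library apart, in the values of BBC3 and PMAIP1 was not tested.

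**Figure D4:**
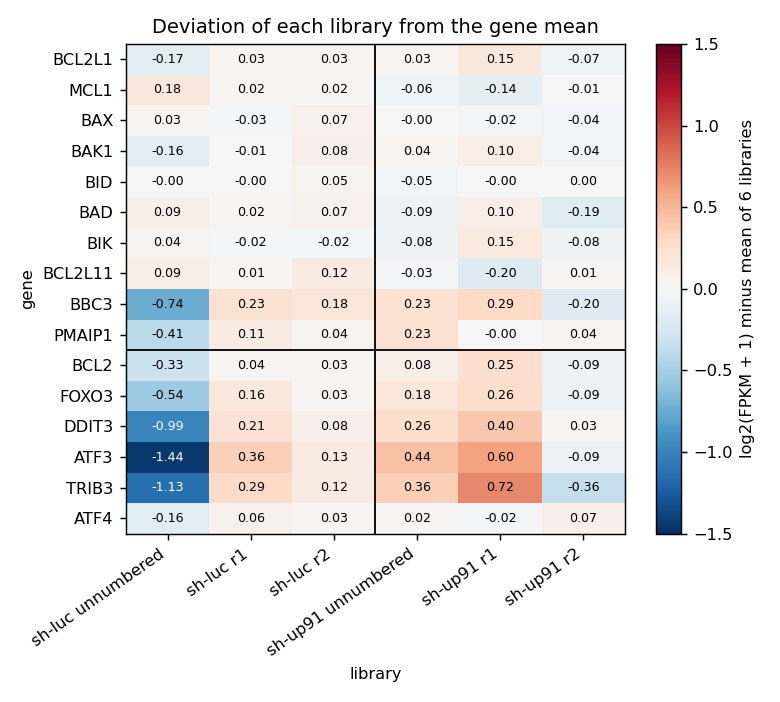
Deviation of log2(FPKM + 1) in each library from the mean of the 6, for the 10 members (above the line) and for BCL2 and 5 regulator or stress genes (below it), with blue for below and red for above. BCL2, FOXO3, ATF3 and TRIB3 were named after their values were seen. In the unnumbered sh-luc library BBC3 (-0.74), PMAIP1 (-0.41), DDIT3 (-0.99), ATF3 (-1.44) and TRIB3 (-1.13) are low together and ATF4 (-0.16) less so, while MCL1 is above its mean (0.18). GATA1, a listed regulator that was highest in that library, is not drawn.

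BBC3 had the largest spread of the members, with an SD of 0.40 in log2(FPKM + 1) over the 6 libraries. Among 6313 genes that averaged 10 FPKM or more, those whose pattern over the 6 libraries was most like it were ATG4D, KLF6, SLC25A25, DHX8 and TRIM44, with Pearson's r between 0.994 and 0.995. KLF6, a zinc finger transcription factor, was at 8.23, 17.59 and 15.91 FPKM in sh-luc and 18.18, 18.34 and 12.82 FPKM in sh-up91, the same order of libraries as BBC3 (Spearman's rho 1.0). An r of at least 0.9 was seen for 767 genes, or 12.2% of those compared. Without the unnumbered sh-luc and r2 sh-up91 libraries, the pair farthest from the median of BBC3, r was 0.867 for KLF6 and 0.499 to 0.725 for the other 4 genes. These points share their libraries and the likeness was weaker without the 2 named, so it is given as a description only. In the clustering of the table into 9 groups that the authors deposited, BCL2L1, BAK1 and BBC3 share a cluster of 1739 genes, which holds 13.9% of the table and whose mean z-score was lowest in the unnumbered sh-luc library (-1.43) and highest in sh-up91 r1 (1.30). BAX and BCL2L11 share another cluster, as do BAD and BIK, and MCL1, BID and PMAIP1 are each in a cluster with no other member.

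Of 15 further genes of the BCL2 family, 10 were listed, and BCL2A1, BCL2L10, HRK, BCL2L14 and BCL2L15 were not analysed here. At an unadjusted p under 0.05 in limma 0 of 10 were higher and 0 of 10 lower, and 0 had groups that did not overlap. The median log2 fold change was 0.035. BCL2L12 was the highest of them at 47.0 ± 2.79 and 45.1 ± 2.81 FPKM (SD, n = 3 each) in sh-luc and sh-up91, followed by BCL2L13 at 36.4 ± 7.49 and 40.2 ± 6.13 FPKM. BNIP3, a mitophagy receptor, was at 33.9 ± 4.28 and 33.4 ± 2.88 FPKM, and BNIP1 at 16.5 ± 1.92 and 16.7 ± 0.631 FPKM. BCL2 itself, named here after its values were seen, was low in these cells at 2.83, 3.94 and 3.91 FPKM in sh-luc and 4.09, 4.72 and 3.52 FPKM in sh-up91. Its groups overlapped, with the unnumbered sh-luc library lowest, and its log2 fold change was 0.17 (standard error 0.12, adjusted p = 0.930 in limma), or 0.047 without that library.

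Downstream of the pores, 14 of 14 genes of mitochondrial execution (the VDAC channels, CYCS, APAF1, caspases and others) were listed, and 0 were higher and 0 lower at an unadjusted p under 0.05 in limma. Their median log2 fold change was -0.014, with 5 above and 9 below 0. VDAC2, a channel of the outer membrane that binds BAK1 and BAX, was the most abundant at 271.66, 263.33 and 260.75 FPKM in sh-luc and 258.74, 252.87 and 243.54 FPKM in sh-up91. It was the only gene of the list whose groups did not overlap (3.03% of all genes tested were lower in this way), with a log2 fold change of -0.075 (standard error 0.053, adjusted p = 0.930 in limma). VDAC1 (227.2 ± 14.6 and 215.7 ± 8.56 FPKM), VDAC3 (136.9 ± 11.5 and 135.7 ± 6.13 FPKM; SD, n = 3 each) and MTCH2 (96.39 to 104.20 FPKM over the 6 libraries) overlapped between sh-luc and sh-up91.

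Of 9 genes grouped as transcription regulators of the members, 9 were listed, with 0 higher and 0 lower at an unadjusted p under 0.05 in limma and 0 without overlap. The median log2 fold change was 0.11 with all libraries and 0.0071 without the unnumbered sh-luc library, in which 8 of the 9 were lowest. ATF4, DDIT3 and TRIB3, 3 of these 9, are also among the 12 stress genes above, so the lists are not separate evidence of that. TRIB3 is not itself a transcription factor, and it is counted among the 8. STAT5A, a known activator of BCL2L1, was at 132.4 ± 11.3 and 137.4 ± 3.43 FPKM (SD, n = 3 each) in sh-luc and sh-up91. GATA1, an erythroid factor that also acts on BCL2L1, was at 197.0 ± 5.37 FPKM in sh-luc and 190.1 ± 9.04 FPKM in sh-up91. For MYC the means were 162.9 ± 19.1 and 175.7 ± 3.82 FPKM. FOXO3, a known activator of BCL2L11 and BBC3 that was named after its values were seen, was at 6.64, 11.48 and 10.39 FPKM in sh-luc and 11.59, 12.33 and 9.48 FPKM in sh-up91, with the same low library as BBC3.

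Of 13 regulators that act on the proteins, 13 were listed, with 0 higher and 0 lower at an unadjusted p under 0.05 in limma and a median log2 fold change of 0.030. Groups did not overlap for 1 gene that was higher and 2 that were lower in sh-up91, where 4.04% of all genes tested were higher and 3.03% lower in this way. The higher one was USP9X, a deubiquitinase that stabilizes MCL1, at 10.03, 10.56 and 9.70 FPKM in sh-luc and 11.08, 10.89 and 11.13 FPKM in sh-up91 (log2 fold change 0.12, adjusted p = 0.930 in limma). DYNLL1, a dynein light chain that binds BIM, was at 329.63, 285.68 and 299.79 FPKM in sh-luc and 279.42, 284.76 and 275.66 FPKM in sh-up91 (log2 fold change -0.12, adjusted p = 0.930 in limma). AKT1, the kinase that phosphorylates BAD, was at 92.16, 88.29 and 91.25 FPKM in sh-luc and 86.13, 84.10 and 87.16 FPKM in sh-up91 (log2 fold change -0.077, adjusted p = 0.930 in limma). PIM1, another BAD kinase, was the most abundant at 549.2 ± 99.1 and 622.0 ± 85.3 FPKM (SD, n = 3 each), and the 14-3-3 genes YWHAZ (291.1 ± 13.5 and 284.6 ± 11.4 FPKM) and YWHAQ (244.7 ± 15.2 and 239.0 ± 11.1 FPKM) overlapped between the groups as well. Of 13 mitochondrially encoded genes 0 were listed in the table, so their level was not analysed here.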

How the data were processed

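RNA-seq of 6 K562 libraries was analysed. According to the methods, the authors called bases with Casava, trimmed and masked the reads, mapped them to hg38 and computed RPKM with SAMtools 0.1.19. The values the authors deposited are FPKM with 2 decimals. The aligner, annotation, strand setting and handling of pairs are not given in the sources used here. The deposited table also holds a score per gene and library (the z-score of FPKM, recomputed within 2.2e-14), and a cluster number with a membership, a fraction from 0 to 1, which were used only as a description. The smallest SD among its genes is 0.0501 FPKM, so nearly constant genes are outside every count.

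RefSeq GRCh38.p14 gave symbols to 12363 of 12486 genes. FPKM are not counts, so log2(FPKM + 1) was fitted with limma 3.58.1 (R 4.3.3), using lmFit and eBayes with a trend, for the 12276 genes whose mean reached 0.1 FPKM. The fit set sh-up91 against sh-luc without covariates, with Benjamini-Hochberg adjustment over all genes tested. The step was tested on simulated data with independent spread per gene and larger differences than the members had here. That test does not show how differences of the size seen in the members would be found. Exact permutation tests over 3 against 3 libraries cannot go below 0.1. Deviations from the group means correlated between same-numbered libraries at 0.0444 (unnumbered), 0.385 (r1) and -0.34 (r2), so the numbers were not taken as pairs. The members and lists were chosen with earlier results of these data known. All members were named, with listed genes at an unadjusted p under 0.05 or without overlap, up to 4 of highest mean FPKM per list, the 5 genes most like the most variable member, and ATF4 and DDIT3. BCL2, FOXO3, ATF3 and TRIB3 were named after their values were seen, and ADAMTSL4 and GPR137 for their overlap with a member. Strands and overlapping genes came from GENCODE release 44. Alternatives were a pseudocount of 0.1, other filters, scalings and variance models, a replicate block and each library left out. Figures were drawn with matplotlib 3.10.9, and permutation tests run with scipy 1.17.1, under Python 3.11.15 with pandas 2.3.3 and numpy 2.4.6.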

Additional observations from a re-analysis of the deposited data

How the results depend on the processing

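Filters, variance models and the replicate block cannot move a difference of group means in this balanced design, so 49 of 139 alternative log2 fold changes of members repeat the reported ones. Of the other 90, 85 kept their direction and 5 did not. All 5 came from leaving out a library: without the unnumbered sh-luc library BAK1 was -0.00067, BIK 0.016 and BBC3 -0.096, and BIK was 0.035 without the unnumbered sh-up91 or the r2 sh-up91 library. Over the libraries left out in turn the values ranged from -0.00067 to 0.12 for BAK1, from -0.081 to 0.035 for BIK, from -0.096 to 0.39 for BBC3, from 0.011 to 0.13 for BCL2L1, from -0.18 to -0.090 for MCL1, from -0.073 to -0.028 for BAX, from -0.043 to -0.016 for BID, from -0.20 to -0.052 for BAD, from -0.19 to -0.084 for BCL2L11 and from 0.014 to 0.27 for PMAIP1, and the cause was not tested. No alternative called a gene at an adjusted p under 0.05 in limma. At an unadjusted p under 0.05 there were 325 genes, 533 with a replicate block, 854 without sh-luc r1, 712 without sh-up91 r2, 156 without the unnumbered sh-up91 library and 219 to 346 in the other alternatives. With the replicate block, where the log2 fold changes are the same by construction (BBC3 0.22, MCL1 -0.14), the members had adjusted p-values of 0.947 or more. Genes without overlap numbered 868, 710 to 898 in the alternatives with all 6 libraries, and 1460 to 3087 with a library left out, where groups of fewer libraries overlap less. Without sh-up91 r1, 1 member (BAD) had an unadjusted p under 0.05 in limma, as had 231 of the 12270 genes tested there. The library left out is the highest of the 6 for BAD. With a minimum mean of 1 FPKM, BIK was not tested. Scaling moved the median log2 fold change of all genes by -0.017 or -0.021. The fragments behind each FPKM are unknown, which limits BIK above all.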
